A study of Mus musculus with 9 samples.

Results

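The Slc25 genes encode the mitochondrial carriers, and 33 of them were measured in 6 mouse alveolar rhabdomyosarcomas and 3 wild-type mouse skeletal muscles. A carrier was any gene whose platform symbol starts with Slc25a, which took 65 probe sets, and each gene was represented by its brightest probe set over all 9 arrays. The 33 carriers are among 12393 genes on these Affymetrix arrays. Alveolar rhabdomyosarcoma is a malignant tumour with features of developing skeletal muscle. The labels name the tumours only by this diagnosis and the muscles as wild-type controls. They give no transgene, allele, strain, age, muscle or treatment for either group, and do not say whether the samples came from separate animals. The p-values therefore measure the spread between these samples, and the number of arrays limits their precision.

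Mitochondrial carriers are small proteins of the inner mitochondrial membrane that move nucleotides, phosphate, carboxylates, amino acids, acylcarnitines, cofactors and iron between the cytosol and the matrix. Skeletal muscle fibres are rich in mitochondria. They export ATP through the ADP/ATP carriers, import phosphate for ATP synthase, and import long-chain acylcarnitines for fatty acid oxidation. Several carriers have close relatives with like substrates but different tissue patterns, the best known being the muscle and heart form of the ADP/ATP carrier, Slc25a4, and the more widely expressed Slc25a5.

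Signals are linear MAS5 intensities after each array was multiplied to the same trimmed mean, because muscle 1 and muscle 3 were deposited on a lower scale, with trimmed means of 294.3 and 140.9 against 500.2 on the others. Differences are tumour minus muscle on the log2(signal + 16) scale. With the signals as deposited the median difference of all genes rose from 0.10 to 0.79, so directions below are relative to the common scale. Low MAS5 signals can be background. The Gapdh 3′ to 5′ probe set ratio, which rises as RNA degrades, was 1.93 to 9.39 in the tumours, 1.68 in muscle 1, 57.2 in muscle 2 and 33.0 in muscle 3, and its part in the results was not tested. Tumour 1 correlated least with the other tumours, at a mean r of 0.737 against 0.817 to 0.867 for the rest. Of 14 adult muscle fibre markers, 13 were lower in the tumours by limma, and their summed signal was 2803 to 166429 in the tumours and 259393 to 365362 in the muscles. In bulk RNA, fewer muscle fibres and less carrier RNA per fibre cannot be told apart.

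The carriers that fell served unlike kinds of transport. They were the muscle ADP/ATP carrier Slc25a4, the acylcarnitine carrier Slc25a20, the oxoglutarate carrier Slc25a11, the ornithine carrier Slc25a15, the calcium-regulated ATP-Mg/phosphate carrier Slc25a25 and the pyrimidine nucleotide carrier Slc25a33. The aspartate-glutamate carrier Slc25a13 and the ATP-Mg/phosphate carrier Slc25a24 rose. Counted together, 6 of the 33 carriers were lower in the tumours (18.2%) and 2 were higher (6.06%) at an adjusted p under 0.05 by limma with Benjamini-Hochberg adjustment, and 25 were not called. Among all genes 17.8% were called, 9.09% lower and 8.66% higher, so the share of carriers that fell was above the share of all genes. The share that rose rests on 2 carriers and was near that of all genes. Neither difference in share was tested. The median difference of the carriers was -0.51, beside 0.10 for all genes. In 9 carriers every tumour lay below every muscle and in 3 every tumour lay above every muscle, against 11.0% and 10.7% of all genes. With the signals as deposited, 1 carrier was lower, Slc25a15, and 6 were higher, against 2.98% and 19.1% of all genes. The count of higher carriers also fell to 0 without muscle 2 and to 0 without muscle 3, and was 3 without tumour 1, without tumour 4 or without muscle 1. Over all genes the higher count was 1073 with all arrays, 595 without muscle 2 and 503 without muscle 3. It was 1421 without tumour 1, 967 without tumour 4 and 719 without muscle 1.

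**Figure D1:**
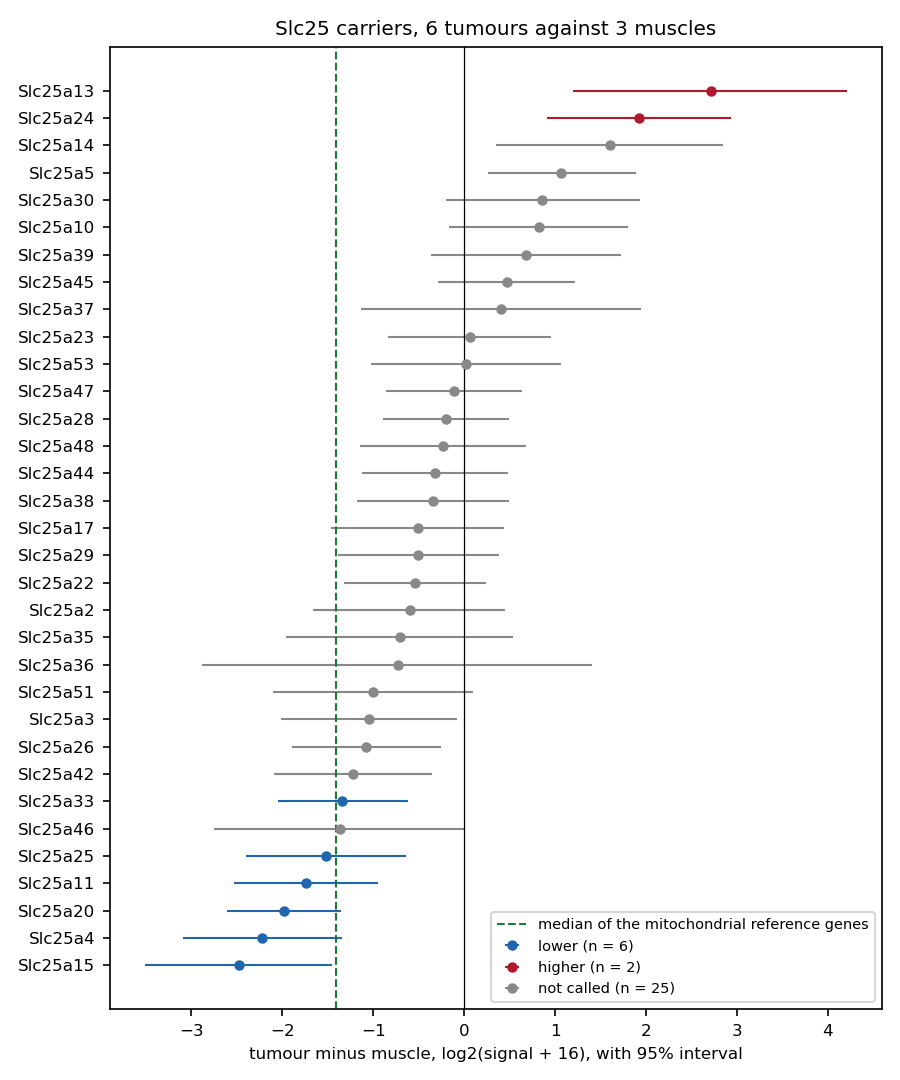
Difference of each of the 33 carriers, tumour minus muscle on the log2(signal + 16) scale (horizontal axis), with its 95% interval from limma; blue marks the 6 carriers that were lower, red the 2 that were higher and grey the 25 not called. The dashed line is the median difference of 82 respiratory and TCA cycle genes, -1.41, and most carriers lie to its right.

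The promoters of 4 carriers are shown as examples: the paired ADP/ATP carriers, Slc25a4, which fell, and Slc25a5, which was not called, the acylcarnitine carrier Slc25a20, which had the smallest adjusted p of the carriers, and the aspartate-glutamate carrier Slc25a13, which had the largest rise. Each is a RefSeq window on GRCm38.p6 from 250 bases before to 50 after the annotated start, read 5′ to 3′ on the gene's strand. The windows lie at chr8:46211013-46211312 on the minus strand for Slc25a4, chrX:36795347-36795646 on the plus strand for Slc25a5, chr9:108661886-108662185 on the plus strand for Slc25a20 and chr6:6217124-6217423 on the minus strand for Slc25a13. Capitals mark a GC box, whose letters are GGGCGG, the CCAAT box, or the core of ETS family sites, whose letters are CCGGAAG, on either strand.
Slc25a4: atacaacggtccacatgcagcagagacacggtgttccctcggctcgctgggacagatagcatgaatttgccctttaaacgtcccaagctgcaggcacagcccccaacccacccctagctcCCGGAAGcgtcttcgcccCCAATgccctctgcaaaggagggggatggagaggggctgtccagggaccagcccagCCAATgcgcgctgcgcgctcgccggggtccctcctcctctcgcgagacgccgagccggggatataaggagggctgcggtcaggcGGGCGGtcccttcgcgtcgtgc
Slc25a5: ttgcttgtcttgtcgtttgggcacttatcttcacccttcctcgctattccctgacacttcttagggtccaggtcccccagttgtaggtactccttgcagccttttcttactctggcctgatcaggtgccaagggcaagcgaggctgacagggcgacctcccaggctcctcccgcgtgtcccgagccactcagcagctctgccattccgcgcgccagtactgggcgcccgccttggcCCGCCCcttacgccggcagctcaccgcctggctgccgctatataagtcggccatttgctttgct
Slc25a20: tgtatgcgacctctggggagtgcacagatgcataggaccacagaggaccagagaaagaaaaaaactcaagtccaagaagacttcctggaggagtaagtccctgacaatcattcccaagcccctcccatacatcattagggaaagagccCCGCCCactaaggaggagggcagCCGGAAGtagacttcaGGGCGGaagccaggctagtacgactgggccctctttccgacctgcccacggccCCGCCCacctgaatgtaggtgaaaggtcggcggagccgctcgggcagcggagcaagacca
Slc25a13: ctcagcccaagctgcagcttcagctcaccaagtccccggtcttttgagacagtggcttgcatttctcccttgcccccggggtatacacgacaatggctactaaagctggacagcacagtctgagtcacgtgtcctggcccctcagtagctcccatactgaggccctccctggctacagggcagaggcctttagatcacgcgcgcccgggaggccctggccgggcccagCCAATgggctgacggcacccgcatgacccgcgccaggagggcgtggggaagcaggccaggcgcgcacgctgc

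The Slc25a4 window held 1 GC box, 2 CCAAT boxes and 1 ETS core, and the Slc25a5 window held 1 GC box and neither of the other motifs. The Slc25a20 window held 3 GC boxes and 1 ETS core. The Slc25a13 window held 1 CCAAT box. RefSeq windows were found for 26 of the 33 carriers, 35 windows in all, and for 8 of the 8 called carriers. The GC box was present in 32 of the 35 windows, or 91.4%, against 55.4% of the windows of all genes tested and 35.7% of all mouse windows in the table. The ETS core was in 17.1%, against 14.0% of the windows of genes tested and 8.86% of all windows. The CCAAT box was in 54.3%, against 37.1% and 37.4%. Both strands were also searched for the NRF1 core, found in 2.86% of carrier windows against 7.96% and 4.6%, and for the MEF2 core, found in 5.71% against 3.21% and 3.69%. The oestrogen-related receptor half-site AAGGTCA was in none of the 35 windows, against 3.61% and 4.72%. Each motif was counted on its own, so letters shared by neighbouring motifs counted for each, and a letter match is a description and not a binding site.

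Among the 8 carriers of adenine nucleotides and phosphate, 2 fell, 1 rose and 5 were not called, with a median difference of -0.78. Slc25a4, which exchanges ADP for ATP across the inner membrane, had signals of 2420, 5098, 7631, 4583, 3861 and 4856 in tumours 1 to 6 and of 17426, 19787 and 26516 in muscles 1 to 3. All tumours lay far below all muscles, and tumour 1 was the lowest. The mean was 4741 ± 1713 (SD, n = 6) in the tumours and 21243 ± 4717 (SD, n = 3) in the muscles, a 4.65-fold fall (difference -2.22 ± 0.41 SE, limma adjusted p = 0.002). The 4 probe sets of Slc25a4 were all lower, by differences from -2.62 to -1.82. With the signals as deposited the difference was -1.36 and no longer called (limma adjusted p = 0.11).

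Slc25a5, the form of the ADP/ATP carrier found in most dividing tissues, had signals of 2952, 7877, 8178, 4596, 4131 and 5340 in the tumours and of 2793, 2344 and 2250 in the muscles. The groups did not overlap, although tumour 1 lay close to muscle 1. The mean was 5512 ± 2099 (SD, n = 6) against 2462 ± 290 (SD, n = 3), a difference of 1.07 ± 0.38 SE that was not called (limma adjusted p = 0.068). It was called without tumour 1 (1.24, adjusted p = 0.012), with quantile normalization (1.19, adjusted p = 0.029) and with the signals as deposited (1.93, adjusted p = 0.014), all by limma. Its 8 probe sets all had positive differences, from 0.47 to 1.20, and 2 of them were called. The ADP/ATP carriers are close paralogs and some of their probe sets may bind both transcripts, so their values are less certain than those of single genes.

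**Figure D2:**
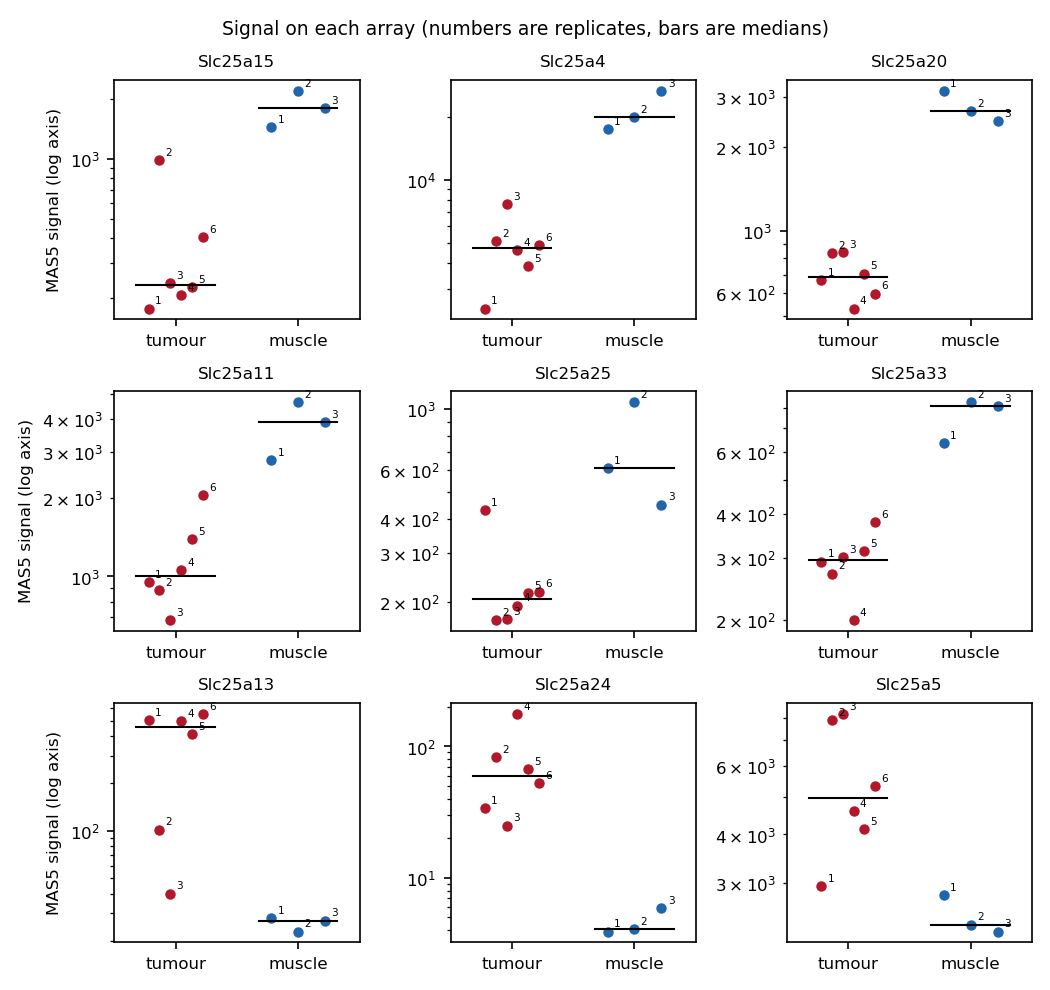
MAS5 signals of the 8 called carriers, and of Slc25a5, on each array (vertical log axis), with the replicate number beside each point and bars at the medians. The Slc25a4 tumours span 2420 to 7631 against 17426 to 26516 in the muscles, and Slc25a13 spans 40 to 553 against 23 to 28.

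Slc25a3, which brings in the phosphate that ATP synthase uses, had signals of 6212, 13839, 15075, 8279, 11295 and 18240 in the tumours and 21304, 22964 and 26998 in the muscles. Every tumour was below every muscle, but the difference of -1.05 was not called (limma adjusted p = 0.14). The calcium-dependent ATP-Mg/phosphate carriers, which adjust the adenine nucleotide content of the matrix, split. Slc25a25 had signals of 432, 172, 173, 194, 215 and 218 in the tumours and 611, 1059 and 451 in the muscles. Tumour 1 lay just under muscle 3 and the other tumours lay well below. The mean was 234 ± 99 (SD, n = 6) against 707 ± 316 (SD, n = 3), a 2.86-fold fall (-1.52 ± 0.41 SE, limma adjusted p = 0.02). The call was lost without muscle 1 (-1.57, adjusted p = 0.062), without muscle 2 (-1.19, adjusted p = 0.16) and with the signals as deposited (-0.70, adjusted p = 0.39), by limma.

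Slc25a24 moved the other way, with signals of 34, 83, 25, 177, 67 and 53 in the tumours and of 3.9, 4.1 and 5.9 in the muscles. The muscle signals were at the bottom of the array, brighter than only 0.368% to 1.12% of probe sets, so that they can be background, and the tumour signals were brighter than 8.41% to 39.1%. The mean was 73 ± 55 (SD, n = 6) in the tumours and 4.6 ± 1.1 (SD, n = 3) in the muscles. The difference was 1.92 ± 0.47 SE on the offset scale, or 3.78-fold (limma adjusted p = 0.012). Its size depended on the offset, being 3.45 with an offset of 1 and 0.92 with an offset of 64. The call was lost without muscle 2 (1.90, adjusted p = 0.055) and without muscle 3 (1.96, adjusted p = 0.052), by limma. Slc25a23, the third ATP-Mg/phosphate carrier, had signals of 158, 73, 122, 173, 145 and 94 in the tumours and 129, 87 and 144 in the muscles. Its groups overlapped fully and the difference was 0.06. Slc25a42, which carries coenzyme A into the matrix, had signals of 107 to 376 in the tumours and 483 to 530 in the muscles, with no overlap and a difference of -1.22 just short of the call (limma adjusted p = 0.052). It was called without tumour 1 (-1.37, limma adjusted p = 0.016). Slc25a17, a carrier of peroxisomes, had a difference of -0.51 and was not called.

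Close relatives were compared within each array as a log2 ratio of their signals, which removes anything that multiplies all genes of an array alike apart from the offset. Since probe sets differ in brightness, a ratio was read only for its change between the groups. Of 9 pairs measured, 5 changed at an adjusted p under 0.05 in a two-sided exact permutation test over 84 splits of the arrays, in which the smallest p is 0.012. The ratio of the ADP/ATP carriers, Slc25a4 to Slc25a5, fell by 3.29 on the log2 scale (exact permutation p = 0.012, adjusted p = 0.036). It was 0.647 to 0.997 as a signal ratio in the 6 tumours and 6.24, 8.44 and 11.8 in muscles 1, 2 and 3. The tumour ratios lay close together while the muscle ratios were all several times higher, as the plot of within-array ratios shows.

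**Figure D3:**
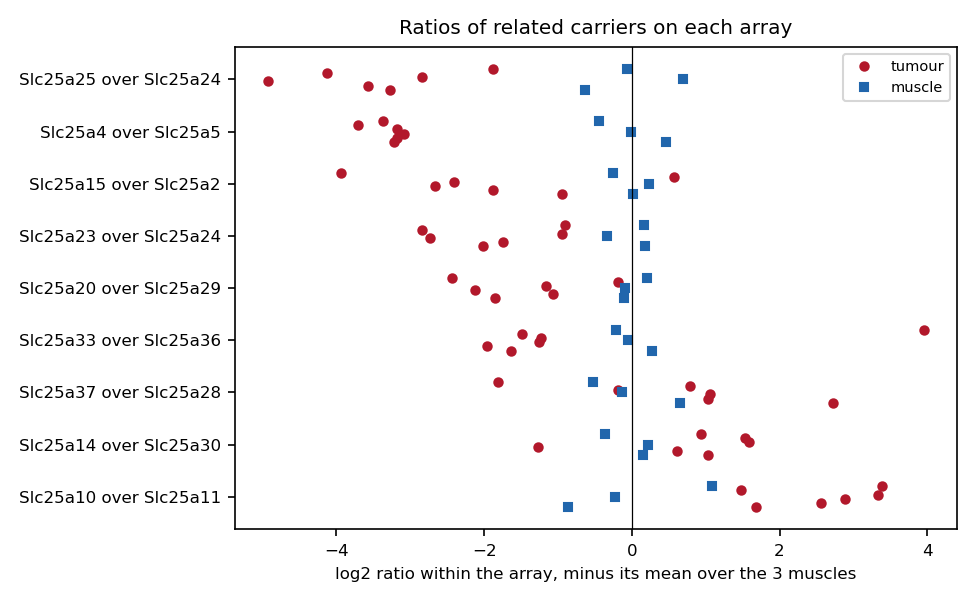
Log2 ratio of the signals of each carrier pair within each array, minus its mean over the 3 muscles (horizontal axis, log2 units), with red circles for the 6 tumours and blue squares for the 3 muscles. The groups do not overlap in 5 of the 9 pairs, and the Slc25a4 over Slc25a5 tumours lie together, at a mean change of -3.29.

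The ratio of Slc25a25 to Slc25a24 fell by 3.44 and that of Slc25a23 to Slc25a24 fell by 1.86 (exact permutation adjusted p = 0.036 and 0.043). Both ratios have Slc25a24 below the line, whose muscle signals can be background, so their sizes are uncertain. Changing the offset to 1 gave -5.03 and -3.39. Changing it to 64 gave -2.26 and -0.87, and Slc25a23 to Slc25a24 then no longer passed (exact permutation adjusted p = 0.086). The ratio of Slc25a10, the dicarboxylate carrier, to Slc25a11, the oxoglutarate carrier, rose by 2.56 (exact permutation adjusted p = 0.036). With probe sets averaged per gene this change was 1.9 and did not pass (exact permutation adjusted p = 0.054). The ratio of Slc25a20 to Slc25a29, a carrier of basic amino acids in the same branch of the family, fell by 1.47 (exact permutation adjusted p = 0.043). These 5 changes have no call when any 1 of the 3 muscles is left out, where 28 splits allow no p below 0.036, nor without tumour 5 or tumour 6. The Slc25a20 to Slc25a29 change also failed without tumour 1 (-1.28, adjusted p = 0.08), tumour 3 (-1.54, adjusted p = 0.064) or tumour 4 (-1.34, adjusted p = 0.08), by exact permutation. The Slc25a23 to Slc25a24 change also failed without tumour 2 (-1.67, adjusted p = 0.054) or tumour 4 (-1.69, adjusted p = 0.064), by exact permutation. The Slc25a4 to Slc25a5 change stayed between -3.52 and -3.06 over all single omissions, with exact permutation adjusted p of 0.032 to 0.11. The ratios of the ornithine carriers Slc25a15 and Slc25a2 (-1.88, adjusted p = 0.14), the mitoferrins Slc25a37 and Slc25a28 (0.60, adjusted p = 0.59), the uncoupling-protein-like Slc25a14 and Slc25a30 (0.74, adjusted p = 0.40) and the pyrimidine nucleotide carriers Slc25a33 and Slc25a36 (-0.60, adjusted p = 0.81) did not pass the exact permutation test. The uncoupling-protein-like ratio passed without tumour 4 (1.14, adjusted p = 0.04) and the pyrimidine ratio without tumour 1 (-1.51, adjusted p = 0.032), by the same exact permutation test.

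The signal of the acylcarnitine carrier fell. Slc25a20 exchanges acylcarnitine for carnitine, the step between the carnitine palmitoyltransferases of the outer and inner membranes. Its signals were 669, 836, 841, 530, 706 and 599 in the tumours and 3164, 2679 and 2474 in the muscles. Of the carriers measured it had the narrowest spread among tumours, with the highest tumour 1.59 times the lowest, and no tumour came near a muscle. The mean was 697 ± 125 (SD, n = 6) against 2772 ± 355 (SD, n = 3), a 3.94-fold fall (-1.98 ± 0.29 SE, limma adjusted p = 0.00044). Its other probe set was lower too (-1.70 ± 0.34 SE, limma adjusted p = 0.0036). The call stood under each single omission and was lost only with the signals as deposited (-1.12, limma adjusted p = 0.12). Its relatives Slc25a45, Slc25a47 and Slc25a48 had differences of 0.47, -0.11 and -0.23 and were not called.

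Of the 3 dicarboxylate carriers 1 fell. Slc25a11 exchanges oxoglutarate for malate and is a limb of the malate-aspartate shuttle, which carries reducing equivalents from cytosolic NADH into the matrix. It had signals of 950, 890, 681, 1057, 1386 and 2043 in the tumours and 2785, 4645 and 3910 in the muscles. The highest tumour stayed below the lowest muscle. The mean was 1168 ± 487 (SD, n = 6) against 3780 ± 937 (SD, n = 3), a 3.34-fold fall (-1.74 ± 0.37 SE, limma adjusted p = 0.0049), which was not called with the signals as deposited (-0.88, limma adjusted p = 0.24). Slc25a10, which exchanges malate or succinate for phosphate, had signals of 1058, 253, 733, 829, 862 and 686 in the tumours and 615, 408 and 213 in the muscles. All tumours but tumour 2 were above the muscles, and the difference of 0.82 was not called (limma adjusted p = 0.27). A second, dimmer probe set of Slc25a10 had a difference of the other sign (-0.49, limma adjusted p = 0.68). Slc25a35, a carrier of unsettled substrate, had a difference of -0.71 and was not called (limma adjusted p = 0.49).

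Among 7 amino acid carriers 1 fell, 1 rose and 5 were not called. Slc25a15 brings ornithine into the matrix in exchange for citrulline. Its signals were 177, 981, 238, 207, 226 and 406 in the tumours and 1439, 2190 and 1788 in the muscles. Tumour 2 stood highest of the tumours but still below every muscle. The mean was 372 ± 309 (SD, n = 6) against 1806 ± 376 (SD, n = 3), a 5.58-fold fall and the largest among the carriers (-2.48 ± 0.48 SE, limma adjusted p = 0.0027). A second, dim probe set of the gene did not show it, with 30 to 96 in the tumours and 16 to 78 in the muscles (0.23, limma adjusted p = 0.82). Averaged per gene before the fit, the 2 probe sets still gave a lower call, but the median of their differences was only -1.12.

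Slc25a13, known as citrin, exports aspartate in exchange for glutamate and is the partner of Slc25a11 in the malate-aspartate shuttle. Its signals were 504, 102, 40, 498, 412 and 553 in the tumours and 28, 23 and 27 in the muscles. Tumours 2 and 3 were far below the other tumours, yet above every muscle. The tumour 3 signal was brighter than only 15.5% of probe sets, so it can be background. The mean was 352 ± 223 (SD, n = 6) against 26 ± 2.5 (SD, n = 3), a 6.52-fold rise on the offset scale (2.71 ± 0.70 SE, limma adjusted p = 0.016). The muscle signals were brighter than only 11.7% to 13.3% of probe sets, so the muscle level can be background and the size of the rise is uncertain, at 3.21 with an offset of 1 and 1.93 with an offset of 64. The call was lost without muscle 1 (2.74, adjusted p = 0.052), muscle 2 (2.66, adjusted p = 0.066) or muscle 3 (2.72, adjusted p = 0.065), by limma. The other amino acid carriers were not called. They were Slc25a22 for glutamate (308 to 775 in the tumours, 603 to 728 in the muscles, difference -0.54), Slc25a2 for ornithine (-0.60), Slc25a29 for basic amino acids (-0.51), Slc25a38 for glycine in haem synthesis (-0.34) and Slc25a44 for branched-chain amino acids (-0.32).

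Of the 5 carriers of cofactors, pyrimidine nucleotides and glutathione, 1 fell and 4 were not called, with a median difference of -1.0. Slc25a33, which brings pyrimidine nucleotides into the matrix for mitochondrial DNA and RNA, had signals of 293, 271, 301, 200, 314 and 379 in the tumours and 635, 829 and 809 in the muscles. The groups were well apart and the tumours were close to each other. The mean was 293 ± 58 (SD, n = 6) against 757 ± 107 (SD, n = 3), a 2.53-fold fall (-1.34 ± 0.33 SE, limma adjusted p = 0.013). The call was lost without muscle 2 (-1.27, adjusted p = 0.082), without muscle 3 (-1.29, adjusted p = 0.082) and with the signals as deposited (-0.50, adjusted p = 0.51), by limma. Its relative Slc25a36 had signals of 27, 1718, 1590, 1092, 2747 and 2614 in the tumours and 1615, 1867 and 1455 in the muscles. Tumour 1 stood far below all other arrays. The difference was -0.73 with it and 0.17 without it, and neither was called (limma adjusted p = 0.71 and 0.79).

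Slc25a26, which imports the methyl donor S-adenosylmethionine, had signals of 98 to 187 in the tumours and 302 to 369 in the muscles. The groups did not overlap, and the difference of -1.08 was not called (limma adjusted p = 0.066), while its second probe set was lower (-2.65 ± 0.52 SE, limma adjusted p = 0.003). Slc25a51, the NAD importer, spanned 447 to 2746 in the tumours and 2119 to 4042 in the muscles (-1.0, limma adjusted p = 0.22). Slc25a39, which imports glutathione, reached 16970 in tumour 1 and ran from 3988 to 11041 across the rest of the tumours, while the muscles read 3496 to 5790 (0.68, limma adjusted p = 0.42). None of these 3 was called.

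The uncoupling-protein-like carriers were not called. Slc25a14 had signals of 222, 382, 491, 75, 324 and 193 in the tumours and 173, 42 and 41 in the muscles. Muscle 1 and tumour 4 kept the groups from separating, and the difference of 1.60 (limma adjusted p = 0.076) was called without tumour 4 (1.91, adjusted p = 0.027) or muscle 1 (2.17, adjusted p = 0.042). Slc25a30 had signals of 451, 501, 614, 799, 813 and 368 in the tumours and 893, 172 and 177 in the muscles. Muscle 1 was the brightest of all 9 arrays, and the difference was 0.86 with it (limma adjusted p = 0.28) and 1.62 without it (limma adjusted p = 0.029). Of its 5 probe sets 1 was higher (1.55 ± 0.37 SE, limma adjusted p = 0.011). Slc25a46, an outer-membrane member of the family linked to mitochondrial shape, spanned 526 to 5884 in the tumours and 3112 to 4461 in the muscles. The difference was -1.37 (limma adjusted p = 0.17), and it was called without tumour 2 (-1.77, limma adjusted p = 0.033). The second Slc25a46 probe set was lower with all arrays (-1.39 ± 0.38 SE, limma adjusted p = 0.022). Slc25a53, with no assigned substrate, had a difference of 0.02.

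The mitoferrins bring iron into the matrix for haem and iron-sulphur clusters, Slc25a37 mainly in red cell precursors and Slc25a28 in most tissues. Slc25a37 had signals of 296, 1061, 704, 1823, 1829 and 6949 in the tumours and 829, 718 and 1654 in the muscles. The tumours spanned 23.5-fold, from tumour 1 at the bottom to tumour 6 at the top, and the muscles fell inside that span. Its difference was 0.40 (limma adjusted p = 0.79), and -0.07 without tumour 6. Slc25a28 had signals of 686, 385, 512, 555, 568 and 664 in the tumours and 770, 501 and 666 in the muscles. The groups overlapped and all arrays lay close together, with a difference of -0.20 (limma adjusted p = 0.76).

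Erythroid genes varied among the tumours as well. Alas2, the erythroid form of the first enzyme of haem synthesis, had signals of 832, 20, 291, 3703, 1642 and 11099 in tumours 1 to 6 and 362, 225 and 821 in the muscles. Slc4a1, the anion exchanger of red cells, had signals of 99, 48, 34, 512, 490 and 2175 in the tumours and 104, 46 and 204 in the muscles. Tumour 6 was the highest array for Slc25a37, Alas2 and Slc4a1, and tumours 4 and 5 came next for each of them. Other erythroid markers had another order. The globin Hbb-b2 was highest in tumour 4, with 1186 in tumour 6, and Hba-a1 was 231 in tumour 4 and 49 in tumour 6. The erythroid transcription factors Klf1 and Gata1 were highest among the tumours in tumour 3 (287) and in tumour 1 (589). Over all 9 erythroid markers 1 was lower and 0 higher in the tumours by limma, and their summed signal was 2615 to 17176 in the tumours and 7893 to 9588 in the muscles. The lower marker was Tfrc, at 565 to 4383 in the tumours. It read 6345, 7256 and 7685 in muscles 1 to 3 and made up most of the muscle sum. The part of erythroid genes in the Slc25a37 signals was not tested.

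**Figure D4:**
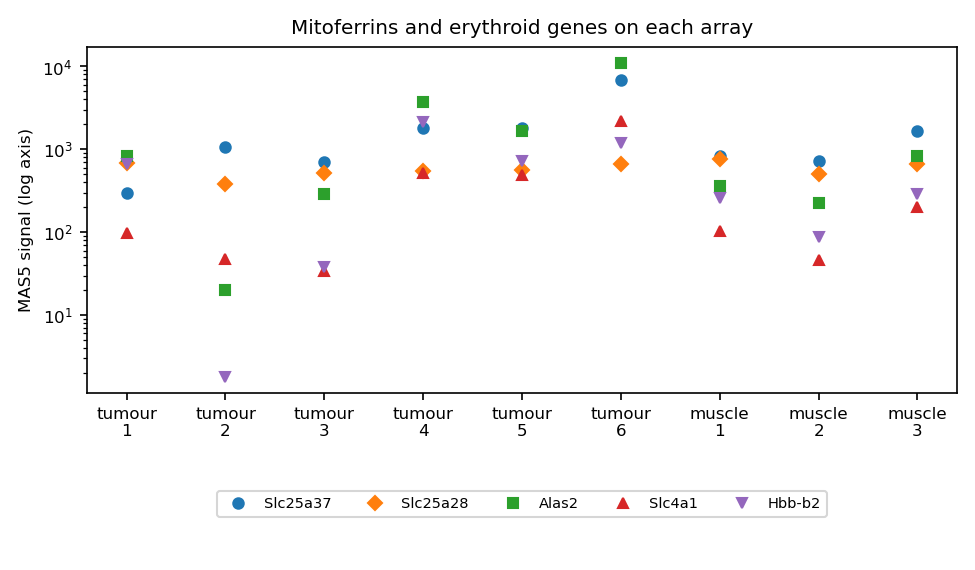
MAS5 signals (vertical log axis) of the mitoferrins Slc25a37 and Slc25a28 and of the erythroid genes Alas2, Slc4a1 and Hbb-b2 on each of the 9 arrays. Slc25a37 spans 296 to 6949 in the tumours with tumour 6 highest, while Slc25a28 stays between 385 and 770 on all arrays.

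Other mitochondrial genes gave the yardstick for the carriers. Of 69 general subunits of the respiratory chain and ATP synthase, 38 were lower (55.1%) and 0 higher by limma, with a median difference of -1.38. At an adjusted p under 0.05, 21 of these 69 were lower without muscle 1, 24 without muscle 2 and 20 without muscle 3. Lower calls over all genes went from 1127 to 789, 672 and 607 under these omissions. Of 13 TCA cycle enzymes 10 were lower and 0 higher, with a median of -2.32. Dld, the shared dehydrogenase subunit of the oxoacid complexes, fell by 3.33 ± 0.59 SE (limma adjusted p = 0.0016), and Ogdh, of the oxoglutarate dehydrogenase complex, fell by 3.10 ± 0.32 SE (limma adjusted p = 2.7e-05). Idh3a, a subunit of isocitrate dehydrogenase, was lower by -3.11 and Fh1, fumarate hydratase, by -2.84. The 82 genes of both lists had a median difference of -1.41, against -0.51 for the carriers. With the signals as deposited 5 of the 69 and 6 of the 13 were lower, and their medians were -0.51 and -1.46 against 0.79 for all genes. The carriers' median was 0.29 on that scale, again between those of the reference lists and that of all genes.

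**Figure D5:**
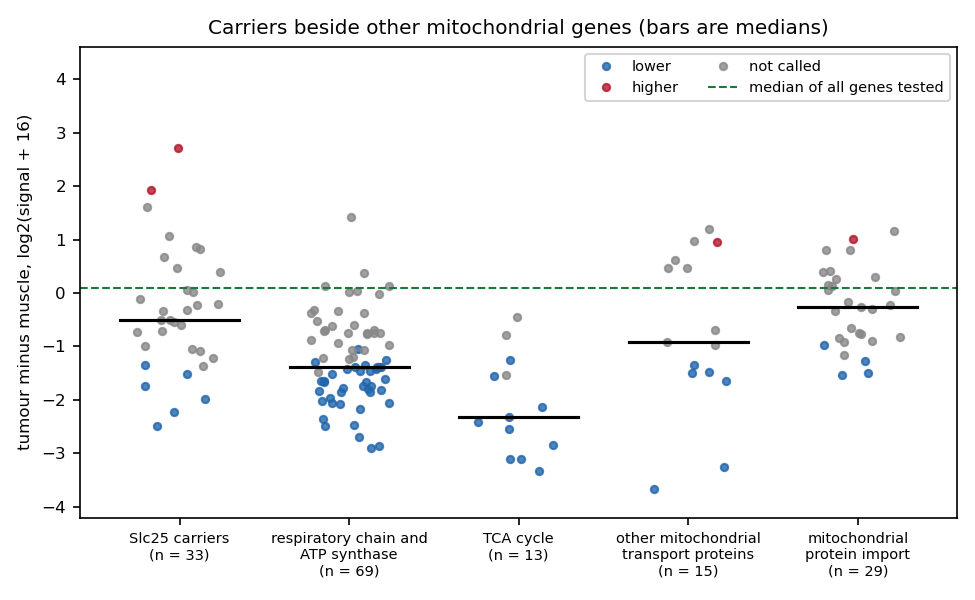
Differences, tumour minus muscle on the log2(signal + 16) scale, for the 33 carriers, 69 respiratory genes, 13 TCA cycle genes, 15 other mitochondrial transport proteins and 29 protein import genes, each point a gene and each bar a list's median. The medians are -0.51, -1.38, -2.32, -0.92 and -0.27, and the dashed line is the median of all genes tested, 0.10.

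Each array was then centred on the median of these 82 reference genes and the fit repeated over all genes, to ask which carriers kept pace with the fall of mitochondrial genes. Relative to the reference, 19 of the 33 carriers were higher, 0 were lower and 14 were not called by limma, against 73.3%, 2.28% and 24.4% of all genes. The share of carriers that stood higher, 57.6%, was below that of all genes, and the median was 1.05 against 1.66. The 6 carriers that had fallen were not called on this scale. The relative differences were -0.92 for Slc25a15 (95% interval -2.03 to 0.18), -0.66 for Slc25a4 (-1.54 to 0.22) and -0.42 for Slc25a20 (-1.08 to 0.23). They were -0.18 for Slc25a11 (-1.09 to 0.73), 0.04 for Slc25a25 (-0.91 to 0.99) and 0.22 for Slc25a33 (-0.56 to 1.01). These intervals are wide and do not show that the carriers moved with the reference. Without tumour 2, Slc25a15 was lower than the reference (-1.26, limma adjusted p = 0.011).

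The 3 carriers whose tumours all lay above the muscles, Slc25a13, Slc25a24 and Slc25a5, stood above the reference by 4.26 (95% interval 2.70 to 5.82), 3.48 (2.45 to 4.51) and 2.63 (1.81 to 3.45), with limma adjusted p of 0.00029, 6.7e-05 and 9.4e-05. They were picked by these same tumour and muscle signals, and the reference itself fell. A positive relative difference therefore followed from the choice, and these values are no separate support for a rise. The TCA cycle enzymes alone fell further than the respiratory subunits, and against them 29 carriers were higher, among them Slc25a11 (0.93, limma adjusted p = 0.034). The share of all genes higher against the TCA cycle genes was not taken, so this count is not a result about carriers. The differences of Slc25a4, Slc25a15 and Slc25a20 against the TCA cycle genes alone were 0.45, 0.19 and 0.69, positive in place of negative.

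Other routes through the mitochondrial membranes also had members that fell. Of 15 other transport proteins 6 were lower and 1 higher by limma, with a median of -0.92. Mpc1, a subunit of the pyruvate carrier, had signals of 195 to 441 in the tumours and 3760, 2642 and 2782 in the muscles (-3.26 ± 0.34 SE, limma adjusted p = 3.2e-05). Ucp1, the uncoupling protein of brown fat, had signals of 20 to 69 in the tumours and 529, 1005 and 484 in the muscles (-3.66 ± 0.44 SE, limma adjusted p = 9.5e-05). Both differences were called under each single omission. All 6 adipocyte markers were lower in the tumours as well, with a summed signal of 1601 to 2820 in the tumours and 21350 to 26506 in the muscles. Lpl made up most of the muscle sum, at 12877 to 15764. Adipoq read 9.8 to 44 in the tumours and 1842 to 3248 in the muscles. The brown fat gene Cidea read 571, 587 and 532 in the muscles. The part of fat in the muscle signals was not tested.

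Cpt2, the carnitine palmitoyltransferase that acts on the acylcarnitine delivered by Slc25a20, was lower (-1.65 ± 0.36 SE, limma adjusted p = 0.0057), and the call was lost without muscle 3 (-1.44, adjusted p = 0.058). Ucp3, the uncoupling protein of skeletal muscle, was lower by a narrow margin (-1.49 ± 0.48 SE, limma adjusted p = 0.045). That call was lost without tumour 3, 4, 5 or 6 or any muscle, with limma adjusted p of 0.053 to 0.15. Averaging the probe sets of Ucp3 lost it too (-1.23, limma adjusted p = 0.066). Sfxn1, the mitochondrial serine transporter, was higher (0.96 ± 0.31 SE, limma adjusted p = 0.045). Its call was lost without tumour 3, 4, 5 or 6, without muscle 1 or without muscle 3, with limma adjusted p of 0.06 to 0.28. Vdac3, a pore of the outer membrane, was lower (-1.48, limma adjusted p = 0.014), as was Mtch2, an outer-membrane relative of the carriers (-1.35, limma adjusted p = 0.014). Without muscle 2 or muscle 3 neither was called, with limma adjusted p of 0.068 and 0.072 for Vdac3 and of 0.085 and 0.056 for Mtch2. Mtch2 was also not called with its probe sets averaged (-0.62, limma adjusted p = 0.22). Over these 15 proteins, 3 were lower without muscle 2 and 2 without muscle 3, where lower calls over all genes were 672 and 607.

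The protein import machinery threads carriers and other precursors into mitochondria. Of its 29 genes 4 were lower and 1 higher by limma, 13.8% and 3.45%, against 9.09% and 8.66% of all genes, with a median of -0.27. Timm17a, of the inner membrane translocase, was lower in the tumours (-1.50 ± 0.29 SE, limma adjusted p = 0.0026) and stayed so under each single omission. Tomm40l (-1.53), Pmpca (-1.27) and Samm50 (-0.98) were lower and Tomm7 (1.01) was higher. Without muscle 2 or muscle 3, Tomm40l (adjusted p = 0.082 and 0.072), Pmpca (0.051 and 0.085), Samm50 (0.14 and 0.14) and Tomm7 (0.17 and 0.29) lost their calls by limma. Samm50 also lost its call without muscle 1 or without tumour 2, 3, 5 or 6, and Tomm7 without tumour 2, 3, 4 or 5. With probe sets averaged, Pmpca (-0.68, adjusted p = 0.16) and Tomm7 (0.63, adjusted p = 0.18) were not called by limma. The number of lower import genes was 1 without muscle 2 and 1 without muscle 3, where lower calls over all genes were 672 and 607.

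The median signal of the 6 lowered carriers, as a percent of each carrier's muscle mean, was 24.6, 27.2, 27.4, 24.0, 28.0 and 26.9 in tumours 1 to 6. Single carriers varied more than their median. In tumour 1 they ran from 9.78 percent for Slc25a15 to 61.1 percent for Slc25a25, and over the tumours Slc25a15 ran from 9.78 to 54.3 percent. The reference genes stood at 35.4, 35.3, 36.1, 40.9, 38.2 and 34.4 percent of muscle. Muscle fibre markers varied far more, at 40.5, 7.46, 1.39, 1.39, 0.77 and 3.73 percent. Tumour 1 had by far the most fibre marker signal of the tumours, and its median for the lowered carriers lay inside the range of the other tumours. Over all 33 carriers the median was 104.0, 58.3, 69.9, 86.0, 78.4 and 79.4 percent of muscle in tumours 1 to 6, highest in tumour 1. The lowered carriers are those that the comparison had called, and none of these values carries a test.

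The carriers differed in how much they varied among the tumours. The highest tumour was 103 times the lowest for Slc25a36, 23.5 times for Slc25a37, 13.7 times for Slc25a13, 13.0 times for Slc25a35 and 11.2 times for Slc25a46. It was 1.59 times for Slc25a20, 1.77 for Slc25a47, 1.78 for Slc25a28, 1.89 for Slc25a26 and 1.90 for Slc25a33. Tumour 1 was the highest tumour for 11 carriers (33.3%, against 37.6% of all genes), and tumour 2 the lowest for 16 (48.5%, against 39.2%). Markers of other cells moved with the groups. Of 14 cell division genes 13 were higher in the tumours, and of 10 macrophage markers 7 were higher, with a summed signal of 10986 to 44920 in the tumours and 4403 to 5831 in the muscles. Of 7 endothelial markers 1 was lower, or 0 to 3 with 1 array left out, and of 7 lymphocyte markers 0 were called. The part of these cells in the carriers' values was not tested.

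Several probe sets were present for 15 carriers. For 10 of these all probe sets had differences of one sign, for 5 they had both signs, and for 0 were probe sets called in both directions.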

How the data were processed

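RNA from 6 tumours and 3 muscles was hybridised to Affymetrix arrays, and groups came from the sample labels. The deposited values are linear signal intensities, made by the authors with MAS5 per the submitters' processing notes. No source used here gives a version or target scale, and detection calls were not used. Arrays were brought to their median trimmed mean by 1 factor each (2% trimmed at each end), with factors of 1.6995 for muscle 1, 3.5493 for muscle 3 and 1.0 for the rest. Of 22690 probe sets, 64 controls were left out and 20380 had 1 symbol, 691 several and 1555 none in the platform annotation. Only those with 1 symbol were named, and each of 12393 genes was read from its brightest probe set by mean log2 over all arrays.

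Log2(signal + 16) values were fitted with limma 3.58.1 in R 4.3.3 (lmFit, eBayes with an intensity trend, no covariates), with Benjamini-Hochberg adjustment over all genes and a threshold of 0.05. Folds are on the same offset scale. The fit relative to mitochondrial genes subtracted each array's median of 82 reference genes. Pair ratios were tested by two-sided exact permutation in Python 3.11.15 (with pandas 2.3.3, scipy 1.17.1, numpy 2.4.6) adjusted over the 9 pairs measured. On simulated data for the tumour and muscle comparison, with 200 of 12393 genes changed, 0% of 2-fold and 32% of 4-fold changes were called, with 1 false call. In the real data a far larger share of genes, 17.8%, was called, which makes the Benjamini-Hochberg cut-off less strict. The simulated shares are therefore not the power of the real comparison.

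The members and gene lists were chosen with earlier results of these data known. All carriers were accounted for, with full values for called carriers and for members of pairs that the account turns on, and of other lists up to 4 called members in each direction by size plus Ucp1, Ucp3 and Mpc1. Cidea, Slc4a1, other erythroid genes and some further carriers were named after their values were seen. Ucp2, Mpc2, Cpt1b, Slc25a1 and Slc25a12 were not analysed here. Alternatives were other scalings, offsets, probe set rules and filters, single omissions and a replicate block. Leaving out tumours 1 and 4 together was added after the data had been seen. Sequences came from RefSeq tables of GRCm38.p6.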

Additional observations from a re-analysis of the deposited data

Results flagged for a closer look

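Among the 33 carriers, 4 had 1 tumour far from the other 5 by Dixon's test on the log2 scale, where chance marks about 1 in 20 groups of normal values. The share of all genes marked in this way was not taken, so the 4 are not read as an excess. Slc25a10 was at 253 in tumour 2 and at 686 to 1058 in the others, and without that tumour its difference was 1.09 (limma adjusted p = 0.051). Slc25a25 was at 432 in tumour 1 and at 172 to 218 in the others, and without that tumour its fall was -1.70 (limma adjusted p = 0.0041). Slc25a35 was at 25 in tumour 2 and at 146 to 327 in the others, with a difference of -0.31 without it (limma adjusted p = 0.63). Slc25a36 was at 27 in tumour 1 and at 1092 to 2747 in the others. Tumour 1 and tumour 2 each account for 2 of the 4. Among the tumours, tumour 1 was the highest for 37.6% of all genes and tumour 2 the lowest for 39.2%.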

How the results depend on the processing

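The 8 called carriers kept their direction under every alternative run, 20 each for the 6 lower carriers and 19 each for Slc25a13 and Slc25a24, which are not among genes of above-median brightness. With the signals as deposited 1 carrier was lower and 6 were higher. The number of higher carriers was 1 among genes of above-median brightness, 0 with the replicate block (tumours 1 to 3 and muscles 1 to 3) and 4 without tumours 1 and 4. Counts over all genes under these settings were not taken. With single arrays omitted, between 4 and 7 carriers were lower and between 0 and 3 higher. Relative to the mitochondrial reference, 10 carriers were higher with the replicate block, 29 against TCA cycle genes alone and 14 to 21 with 1 array left out, and 0 to 1 were lower. The shares of all genes under these alternatives were not taken, so these counts are not a result about carriers. The block left 4 lower carriers. The deviations of same-numbered tumours and muscles, and not their signals, correlated at 0.23, 0.18 and -0.02. The labels name no pairing, and these 3 values cannot show whether one exists. The pairs that passed numbered 3 with an offset of 64, 0 with probe sets averaged per gene, 0 with the signals as deposited, 0 without tumours 1 and 4 and 0 to 5 with 1 array left out. The cause of these shifts was not tested.

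Differences from muscle that changed sign were all of carriers not called. As deposited they were 0.21 for Slc25a17, 0.15 for Slc25a2, 0.29 for Slc25a22, 0.63 for Slc25a28, 0.31 for Slc25a29, 0.06 for Slc25a35, 0.11 for Slc25a36, 0.48 for Slc25a38, 0.47 for Slc25a44, 0.70 for Slc25a47 and 0.28 for Slc25a48. Slc25a17 was 0.33 by the mean or the median of its probe sets. Slc25a23 was -0.03 with quantile normalization, -0.05 with median centring, -0.05 with the replicate block and -0.14 without tumours 1 and 4, and Slc25a53 was -0.09 with median centring and -0.32 without tumours 1 and 4. Slc25a36 was 0.36 without tumours 1 and 4, and Slc25a37 was -0.70 with the replicate block. With 1 array left out the ranges were -0.13 to 0.19 for Slc25a23, -0.26 to 0.40 for Slc25a53, -1.03 to 0.17 for Slc25a36, -0.07 to 0.82 for Slc25a37 and -0.22 to 0.08 for Slc25a47. Relative to the reference, Slc25a15 was 0.40 by the mean and 0.52 by the median of its probe sets. Against TCA cycle genes alone Slc25a15 was 0.19, Slc25a4 0.45, Slc25a20 0.69 and Slc25a11 0.93. Slc25a11 ranged from -0.47 to 0.08 and Slc25a25 from -0.24 to 0.47 with 1 array left out. Slc25a25 was -0.0044 as deposited, -0.03 with quantile normalization, -0.02 with an offset of 1, -0.08 against respiratory genes alone and -0.13 without tumours 1 and 4. Dim muscle signals limit the sizes for Slc25a13 and Slc25a24.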
